A study of Mus musculus with 2 samples.

Results

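The macrophages of the old library were 88 cell barcodes chosen from single-cell RNA counts of mouse perivascular fat. A barcode was chosen when it held at least 1 unique molecular identifier (UMI, the tag that marks 1 captured transcript) of at least 3 of the 8 genes C1qa, C1qb, C1qc, Csf1r, Adgre1, Ptprc, Mrc1 and Pf4, and no UMI of Pdgfra or Cdh5. Barcodes also needed at least 500 detected genes and at most 10% of UMIs from mitochondrial genes. The 88 were 0.642% of the 13711 old barcodes that passed this filter (exact Clopper-Pearson 95% interval 0.515 to 0.790), and 26466 barcodes passed in both libraries together. The other 13623 old barcodes served as the comparison.

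The series holds 1 library from young and 1 from old mice, both labelled wild type (WT) with no treatment other than age. Fat dissected off the aorta was digested with 0.2% collagenase for 45 min at 37 °C and strained at 70 μm, red cells were lysed, and the stromal suspension went into 10x Genomics Chromium 3′ version 2 libraries. The labels call both samples primary perivascular stromal cells and name no sort or gate against blood cells. Mouse numbers, ages in months, sexes and the stretch of aorta used were not given in the sources used here. With 1 library per age and cells that are not replicates, every value below describes these barcodes. Intervals cover counting error only, and no test or p-value is given.

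Macrophages are the phagocytes that live in most tissues, and in fat they take up dying cells and lipid, store and release iron, and secrete chemokines and cytokines. Their growth and survival depend on the receptor Csf1r, and the transcription factor PU.1, the product of Spi1, switches on many of their genes through purine-rich DNA sites. Resident macrophages of fat and vessel walls are often told from recruited ones by genes such as Lyve1, Timd4 and Folr2 on one side, and Ccr2 and Ly6c2 on the other.

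The promoters of 5 of the genes that marked these cells are shown because all of them hold the core of the PU.1 site, GAGGAA, on one strand or the other. The sequences are RefSeq promoters on GRCm38.p6, from 250 bases before to 50 bases after the start of the gene, printed in the direction of the gene. Capitals mark GAGGAA or its reverse complement TTCCTC. The Pf4 window is chr5:90772185-90772484 on the plus strand, C1qb is chr4:136886151-136886450 and C1qc chr4:136892865-136893164, both on the minus strand, Ctss is chr3:95526536-95526835 and Clec4d chr6:123261857-123262156, both on the plus strand.
Pf4: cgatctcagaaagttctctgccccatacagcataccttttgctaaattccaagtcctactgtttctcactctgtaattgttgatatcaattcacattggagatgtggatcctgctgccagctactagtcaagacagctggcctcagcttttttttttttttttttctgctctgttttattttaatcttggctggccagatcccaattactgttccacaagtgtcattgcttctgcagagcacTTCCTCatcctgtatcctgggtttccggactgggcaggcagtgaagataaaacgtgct
C1qb: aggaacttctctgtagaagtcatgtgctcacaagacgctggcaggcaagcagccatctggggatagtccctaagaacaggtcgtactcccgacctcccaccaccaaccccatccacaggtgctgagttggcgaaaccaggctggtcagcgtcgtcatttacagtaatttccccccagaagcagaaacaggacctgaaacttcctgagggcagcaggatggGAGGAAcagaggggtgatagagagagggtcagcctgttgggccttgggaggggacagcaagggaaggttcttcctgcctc
C1qc: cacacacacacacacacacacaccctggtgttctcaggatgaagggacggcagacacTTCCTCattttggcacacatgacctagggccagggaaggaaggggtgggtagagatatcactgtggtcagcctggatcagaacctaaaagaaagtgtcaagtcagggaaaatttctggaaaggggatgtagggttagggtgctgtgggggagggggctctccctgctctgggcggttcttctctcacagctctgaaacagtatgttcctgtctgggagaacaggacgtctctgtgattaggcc
Ctss: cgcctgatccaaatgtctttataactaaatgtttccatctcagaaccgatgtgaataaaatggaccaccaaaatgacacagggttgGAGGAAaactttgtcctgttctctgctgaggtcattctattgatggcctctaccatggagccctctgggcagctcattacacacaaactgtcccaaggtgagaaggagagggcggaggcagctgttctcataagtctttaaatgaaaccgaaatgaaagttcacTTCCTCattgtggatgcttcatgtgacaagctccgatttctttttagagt
Clec4d: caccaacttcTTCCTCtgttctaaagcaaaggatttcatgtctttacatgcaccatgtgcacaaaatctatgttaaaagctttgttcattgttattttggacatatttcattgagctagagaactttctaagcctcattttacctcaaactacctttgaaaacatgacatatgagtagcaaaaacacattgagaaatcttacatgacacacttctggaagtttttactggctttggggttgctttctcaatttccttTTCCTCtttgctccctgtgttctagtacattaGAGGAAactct
These letters were present on either strand in 28.3% of all 32851 promoters of this length. Of the 22 core macrophage genes listed below, 15 were found in the table with 18 promoters, and 9 of the 18 held the letters. Of the 8 rule genes 5 were found, and 5 of their 6 promoters held them. Among the 25 genes with the largest ratios, 18 were found, and 7 of their 19 promoters held the letters, against 3 of 10 promoters of the 12 genes with the smallest ratios. No other motif was searched, and a match is a description of the letters only.

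The rule genes themselves are given as a description, since they chose the cells. Pf4, a chemokine made by platelets and by tissue macrophages, had 9143 UMIs and between 2 and 626 per member (median 92). It lies at chr5:90772435-90773383 (GRCm38, GENCODE M21, as for all gene positions). All 88 members held it, at 14805 CPM (UMIs of a gene per 1000000 UMIs) against 53.0 CPM in the other barcodes. The mannose receptor gene Mrc1 had 242 UMIs in 77 members, Csf1r 260 UMIs in 78, and Adgre1, which encodes the antigen F4/80, 207 UMIs in 76. Ptprc, the pan-leukocyte phosphatase CD45, was found in 47 members with 77 UMIs. The complement C1q chains lie side by side on chromosome 4 between 136880129 and 136898803. C1qa had 129 UMIs in 42 members, C1qb 380 in 67 and C1qc 206 in 63. Every member thus held Pf4, while C1qa was missing from more members than held it.

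Old barcodes without Pdgfra and Cdh5 were counted by the number of rule genes they held. There were 2626 such barcodes with 0 rule genes, 767 with 1 and 84 with 2, then 5, 13, 6, 25, 21 and 18 with 3 to 8. Just inside the threshold, the 5 members with 3 rule genes had a summed level of 25000 CPM over the 22 core macrophage genes, and a range from 146 to 91422 CPM. Just outside it, the 84 barcodes with 2 rule genes had 358 CPM and a highest value of 25862. The medians were thus far apart, at 27196 and 191 CPM, with at least 1 barcode on each side at a level typical of the other side. The member at 146 CPM was a deep barcode of 13653 UMIs with the collagen level of the other barcodes.

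**Figure D1:**
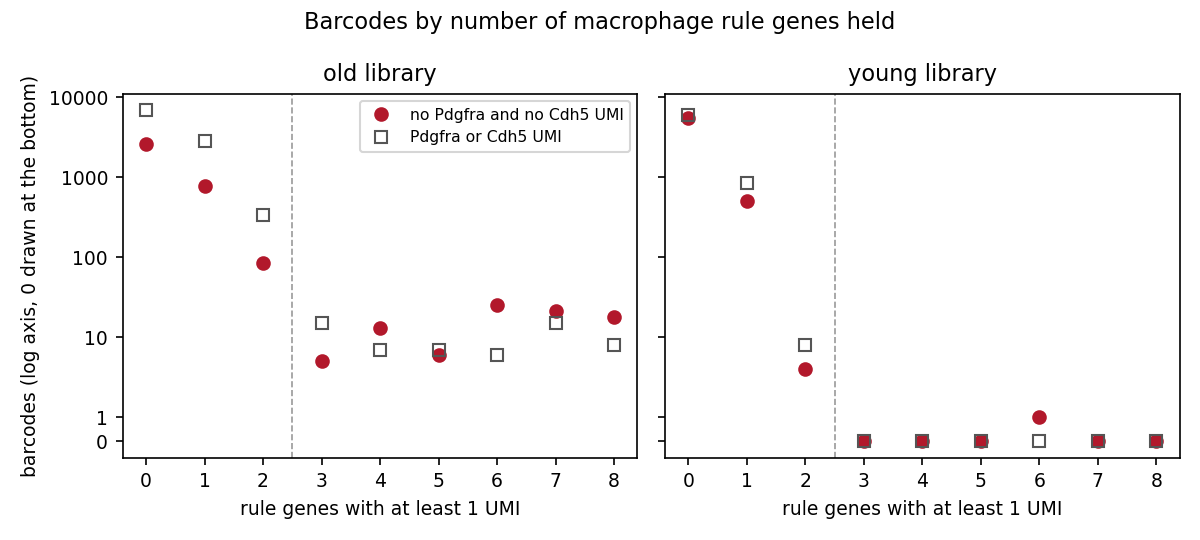
Number of barcodes passing the filter (vertical, log axis with 0 drawn at the bottom) by how many of the 8 rule genes they held (horizontal), in the old (left) and young (right) library, for barcodes without (filled circles) and with (open squares) a UMI of Pdgfra or Cdh5. The filled circles right of the dashed line are the 88 old members and the single young barcode that met the rule.

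A further 58 old barcodes held at least 3 rule genes together with Pdgfra or Cdh5 and were left among the comparison by the rule. Their core macrophage level was 12620 CPM and their collagen level (Col1a1, Col1a2 and Col3a1) 2882 CPM, against 26487 and 1195 CPM in the members and 257 and 4224 CPM in barcodes with 0 rule genes. They had a median of 9978 UMIs, the members 6192.5. Of the 1504 barcodes with the highest Scrublet doublet scores, 24 fell among these 58 (41.4%) and 8 among the 88 members (9.09%), against 10.97% of all old barcodes. These 58 barcodes carried 921 of the 1251 Tyrobp UMIs of the comparison (73.6%), so every ratio of a macrophage gene below rests in part on them. Without them the log2 ratio of Tyrobp moved from 8.43 to 10.35 and the median of the core genes from 8.10 to 9.37.

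Macrophage genes outside the rule were also high in the members, as the label says. Tyrobp, the adaptor that passes on signals of myeloid receptors, was held by 87 of 88 members (0 to 71 UMIs, median 17.5). Its level was 2976 CPM against 8.61, a log2 ratio of 8.43 (95% interval 8.33 to 8.54). Lyz2, myeloid lysozyme, was also held by 87 members (0 to 328 UMIs, median 77.5), at 13944 against 47.9 CPM. Fcer1g, the common Fc receptor chain, stood at 1872 against 5.65 CPM, and Spi1, which encodes PU.1, at 309 against 1.04 CPM in 75 members. Of the 22 core genes, 20 had a mean of at least 20 CPM over the members and the other barcodes and are called measured, and all 20 were at least 2-fold higher in the members. Because 18 of these 20 were under 20 CPM in the other barcodes, they passed the limit only through the members, and their count carries no weight. Fcgr1 was under the limit with 18 UMIs, and Cx3cr1, the fractalkine receptor, had 0 UMIs in the members, which allows up to 4.86 CPM (3 UMIs).

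Barcodes were also compared at equal depth, since the members were shallower than the mesenchymal barcodes (medians of 6192.5 and 9953 UMIs). After each was thinned to 1000 UMIs, 86.4% of the members held Tyrobp against 0.204% of mesenchymal barcodes (Pdgfra without Cdh5), 0.111% of blood endothelial and 1 of 83 Schwann barcodes. Without thinning the shares were 98.9%, 2.51%, 2.34% and 2.41%. Lyz2 was held by 98.9% of thinned members and by 1.71%, 0.890% and 3.61% of these classes in the same order. These classes were limited to barcodes with fewer than 3 rule genes, which left out the 58 barcodes described above. Their low shares follow in part from that limit and are not an independent background.

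**Figure D2:**
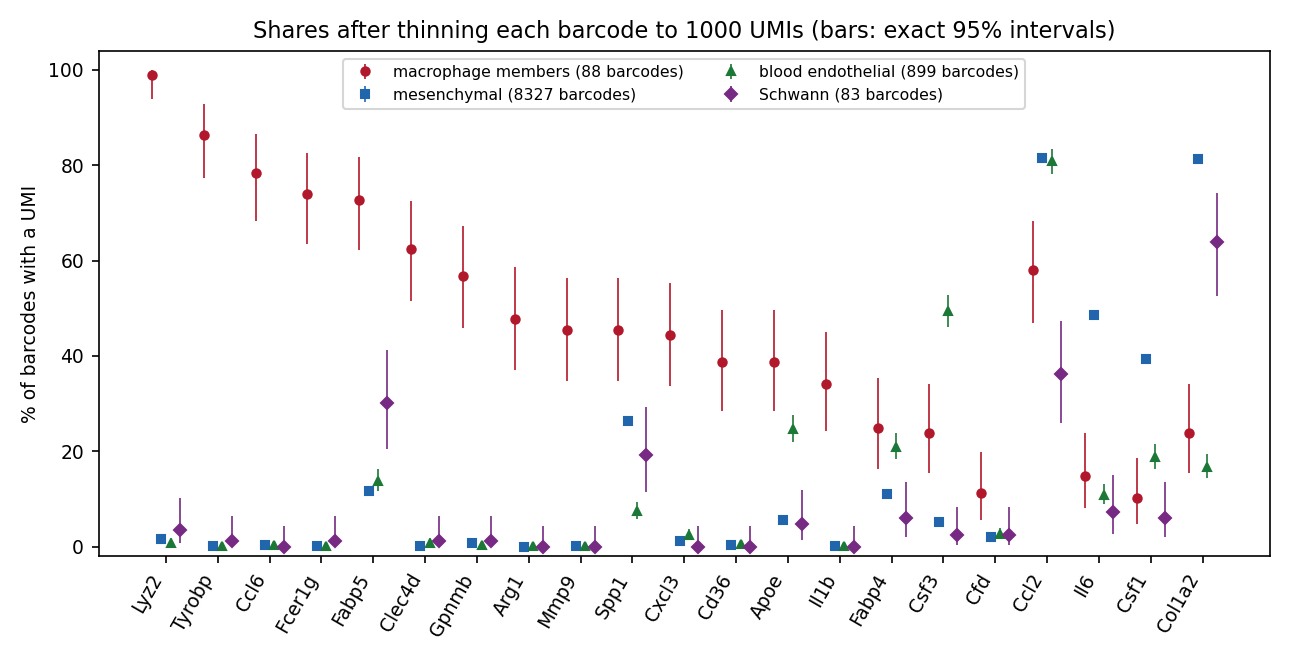
Share of barcodes with at least 1 UMI of each gene (vertical, percent) after thinning to 1000 UMIs, for the 88 members, 8327 mesenchymal, 899 blood endothelial and 83 Schwann barcodes, with exact 95% intervals as bars. Lyz2, Tyrobp and Ccl6 were near 0 in the other classes shown, while Ccl2, Il6, Csf1 and Col1a2 were held more often by mesenchymal barcodes.

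Over all 5396 measured genes outside the rule, 725 (13.4%) were at least 2-fold higher in the members and 1009 (18.7%) at least 2-fold lower, with a median log2 ratio of -0.21. The rule chose cells on this same contrast, so these shares are only the scale on which the lists below are read. With a median-of-ratios size factor every log2 ratio moved by 0.21, and 902 genes were higher and 739 lower. With totals that left out mitochondrial and ribosomal protein genes the ratios moved by -0.23, and 688 were higher and 1727 lower. Higher genes were 41.8% of those past the fold, and 55.0% and 28.5% under these scalings. Ratios near 0 or near 2-fold therefore depend on the scaling.

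**Figure D3:**
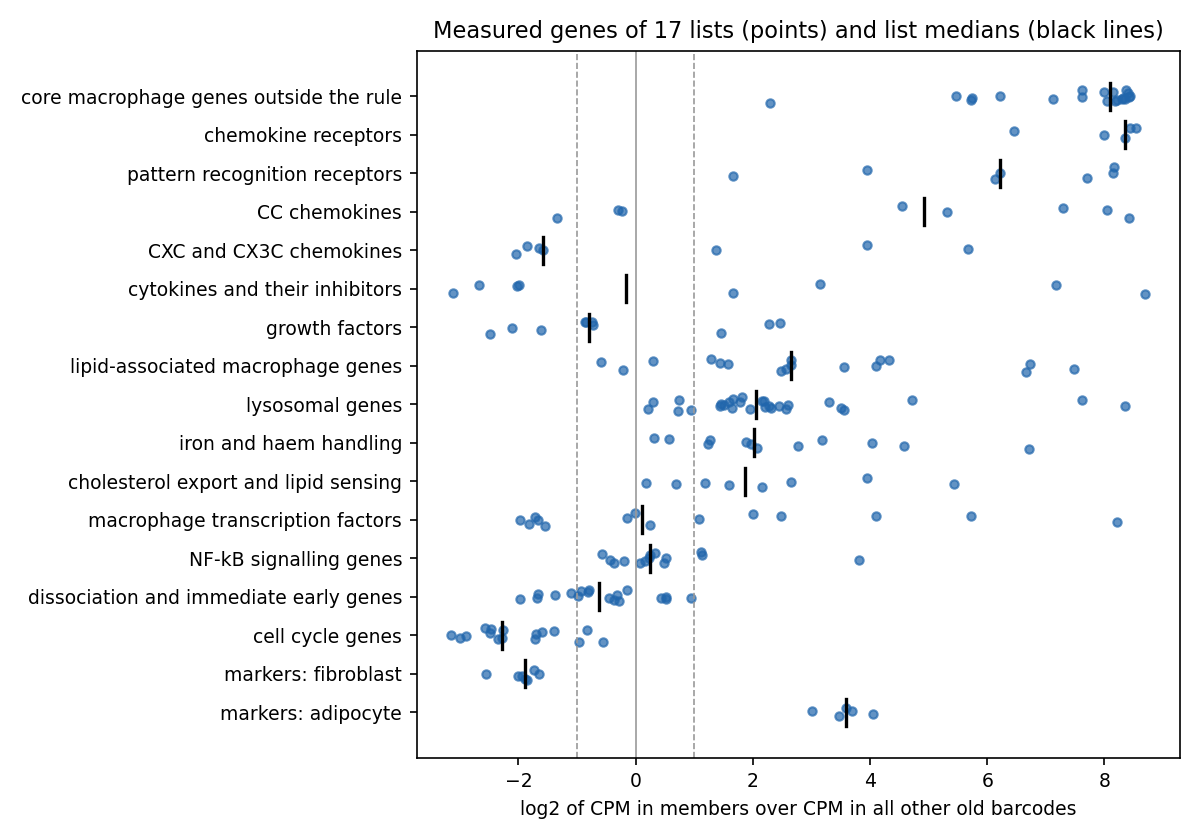
Log2 ratio of CPM in the members over CPM in all other old barcodes (horizontal) for the measured genes of 17 lists (1 point per gene), with the list median as a black line and dashed lines at 2-fold. Core macrophage genes sat between 2.30 and 8.43, lysosomal genes between 0.20 and 8.35, and cell cycle genes between -3.14 and -0.56.

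Several receptors had large ratios. Msr1, a scavenger receptor for modified lipoproteins at chr8:39581685-39642673, had the largest log2 ratio of the measured genes, 8.87 (8.50 to 9.25), with 181 UMIs in 72 members. Receptors for chemoattractants were high as well: C5ar1, the receptor for complement C5a, was at 199 CPM in 50 members, Fpr1 and Fpr2, receptors for formylated peptides, at 175 and 110.1 CPM, and C3ar1, the receptor for complement C3a, at 179.7 CPM. All 5 measured genes of the 13 on the chemoattractant receptor list were higher, each through the members alone. Ccr1, a chemokine receptor, had 62 UMIs in 35 members.

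Among receptors for microbial and damage products, a part was well detected. The C-type lectin genes Clec4d, Clec4n and Clec4e stood at 1108, 814 and 591 CPM, each under 4 CPM in the other barcodes, and Clec4d was held by 84 members (0 to 38 UMIs, median 7). Cd14, the co-receptor for endotoxin, was at 1268 CPM (log2 ratio 6.22), and Tlr2, a receptor for bacterial lipoproteins, at 160.3 CPM against 10.4. The inflammasome sensor Nlrp3 had 46 UMIs in 27 members. Of 16 pattern recognition genes in the files 7 were measured and 7 were higher, 6 of them through the members alone. Scavenger and uptake receptors were mixed, with 6 of 13 measured genes higher and 2 lower, 6 of the 13 measured through the members alone, and a median of -0.37 (2.21 with totals that left out mitochondrial and ribosomal protein genes, where 15 genes were measured). Cd36, the fatty acid and oxidised lipid receptor, was at 708 CPM in 84 members and Itgam, the integrin CD11b, at 238 CPM in 62. Marco was at 175 CPM against 0.441, and its 108 UMIs came from only 9 members. Axl, a receptor for dying cells, was lower at 66.4 against 209 CPM, and Mertk, its relative, had 19 UMIs in 16 members.

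Among secreted factors, some chemokines stood far higher in the members while others were at similar or higher levels in the stroma. Ccl6 was held by 82 members (0 to 100 UMIs, median 18) at 3169 CPM against 9.20, a log2 ratio of 8.43 (8.33 to 8.53). Ccl9 was held by all 88 (1 to 69 UMIs, median 14) at 2518 against 63.5 CPM. The neutrophil attractants Cxcl2 and Cxcl3 were at 2035 against 132 CPM and 1284 against 25.2 CPM. Ccl2 and Ccl7, attractants of monocytes, stood at 2385 and 2163 CPM in the members and at 2946 and 2556 CPM in the other barcodes. Cxcl1, Cxcl5 and Cxcl12 were lower in the members, with log2 ratios of -1.66, -2.04 and -1.86. Of 8 measured CC chemokines, 4 of them measured through the members alone, 5 were higher and 1 lower, and of 7 CXC chemokines 3 were higher and 4 lower.

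Cytokines divided in the same way. Il1b, at chr2:129364570-129371139, encodes interleukin 1β and had 606 UMIs in 58 members (0 to 90, median 2), at 981 CPM against 2.37. Its log2 ratio was 8.69 (8.50 to 8.89). Its close relative Il1a had 70 UMIs in 25 members, and the receptor antagonist gene Il1rn was at 439 against 49.5 CPM in 74 members. Tnf, by contrast, had 7 UMIs in 7 members and Il10 1 UMI. Il6, Il11, Il33 and Lif were lower in the members than in the other barcodes, with log2 ratios of -2.02, -2.67, -3.12 and -1.99. After thinning, Il6 was held by 48.6% of mesenchymal, 14.8% of member, 10.9% of blood endothelial and 7.23% of Schwann barcodes. Of 8 measured cytokine genes, 2 of them measured through the members alone, 4 were higher and 4 lower, with a median of -0.16 whose sign depended on the setting (0.05 with the size factor, 1.44 with totals that left out mitochondrial and ribosomal protein genes). Tgfb1 was at 233 against 73.4 CPM.

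Among genes of the CSF1 axis, the receptor gene Csf1r chose the members and is not compared. Csf1, which feeds macrophages through Csf1r, was at 112 CPM in the members and 504 CPM in the other barcodes (log2 -2.17, -2.54 to -1.83). After thinning it was held by 39.3% of mesenchymal, 18.9% of blood endothelial and 10.2% of member barcodes. Il34, the other ligand of that receptor, and Csf2 had 0 UMIs in the members. Csf2rb, the shared chain of the receptors for GM-CSF and related cytokines, was at 97.2 against 3.35 CPM. Csf3, the granulocyte growth factor, was at 478 against 139.6 CPM, and its highest thinned share was not in the members (23.9%) but in blood endothelial barcodes (49.4%). Among growth factors 3 of 10 measured genes were higher and 3 lower, and 1 was measured through the members alone. Grn, progranulin, was at 560 against 116 CPM, while Fgf2 (log2 -2.49) and Ereg (-2.11) were lower.

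Ferritin dominated the transcriptome. Fth1, the ferritin heavy chain at chr19:9980598-9985098, made up 9.29% of all UMIs of the members. It ranged from 71 to 1526 UMIs per member (median 619), or from 5200 to 200550 CPM, and stood at 92882 CPM against 10211 (log2 3.19, 3.17 to 3.20). Ftl1, the light chain, was at 28646 against 6803 CPM. Of 12 measured genes of iron and haem handling, 4 of them measured through the members alone, 10 were higher (9 with totals that left out mitochondrial and ribosomal protein genes), with a median of 2.02. Hmox1, which breaks down haem, was at 868 against 127 CPM, and Slc40a1, the iron exporter ferroportin, at 77.7 against 0.744 CPM in 27 members. The haemoglobin scavenger receptor gene Cd163 had 15 UMIs in 6 members.

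Lysosomal genes were higher as a group, 23 of 28 measured with none lower and a median of 2.05. Of these, 7 passed the limit through the members alone. The cathepsin genes Ctsb and Ctsd, which encode proteases of the lysosome, stood at 2670 against 234 CPM and 2507 against 214 CPM, and Ctss at 640 against 1.96 CPM. The lipid carriers Npc2 and Psap and the protease gene Lgmn had log2 ratios of 1.59, 2.60 and 3.30. Lamp2 (0.20) and Cd63 (0.29), found at similar levels in the stroma, were among the 5 that did not reach 2-fold.

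Genes linked to lipid-laden macrophages were higher in 14 of 17 measured, with a median of 2.64, and 4 of the 17 were measured through the members alone. Gpnmb, a glycoprotein of lipid-filled macrophages, ranged from 0 to 47 UMIs (median 6) in 73 members and stood at 1331 against 12.5 CPM. Fabp5, a fatty acid carrier, was at 2962 against 172 CPM, Lgals3, galectin 3, at 2110 against 105 CPM, and the lipid receptor gene Trem2 at 108 against 0.606 CPM in 42 members. Spp1, osteopontin, did not differ by 2-fold in summed level. It was held by 77 members at 674 CPM, against 780.3 CPM in the other barcodes (log2 -0.21, and 0.31 where 2 rule genes sufficed). After thinning to 1000 UMIs it was held by 45.5% of members, 26.5% of mesenchymal, 7.45% of blood endothelial and 19.3% of Schwann barcodes. Itgax, Mmp12 and Atp6v0d2, also on this list, had 1, 21 and 4 UMIs. Abca1, which exports cholesterol, was at 500.4 against 32.4 CPM in 82 members, and 6 of 8 measured genes of cholesterol export and lipid sensing, 3 of them measured through the members alone, were higher (5 of 9 with totals that left out mitochondrial and ribosomal protein genes).

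Fabp4, Lpl, Cfd and Igf1 were also higher in sum, but only through a few members. Fabp4, the carrier of adipocytes and endothelium, was at 1563 against 278 CPM, with 73.2% of its 965 UMIs in 5 members and a median of 0. Exactly 16 members held a UMI of the adipocyte genes Adipoq, Plin1, Cidec, Car3 or Retn, 9 of them at more than 1000 CPM and the highest at 10235 CPM. Without these 16, the log2 ratio of Fabp4 went from 2.49 to -1.11, of Lpl, lipoprotein lipase, from 1.29 to -1.76, of Cfd, the adipocyte protease adipsin, from 3.01 to -1.43, and of Igf1 from 1.45 to -0.12. The 16 were chosen by adipocyte genes, so a fall in transcripts of fat cells follows in part from that choice. On the lipid-associated list 12 genes were then higher and 2 lower. The log2 of Tyrobp was then 8.61, the log2 of Il1b 8.91, the log2 of Gpnmb 6.84, the log2 of Fabp5 4.21 and the log2 of Fth1 3.30, each slightly above its value over all members.

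**Figure D4:**
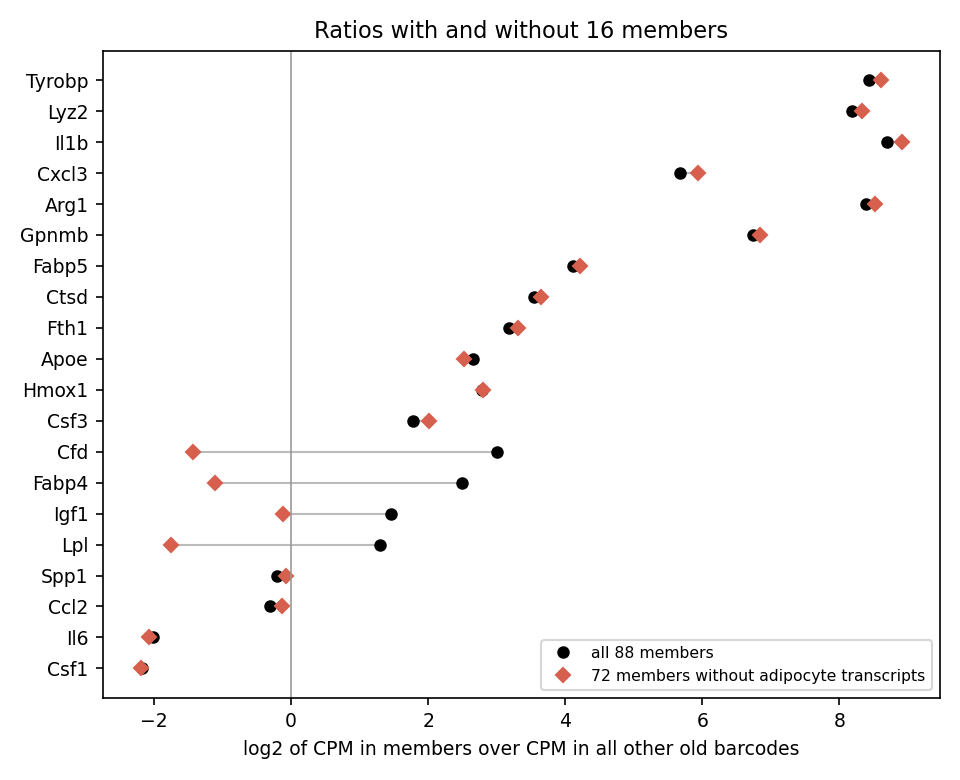
Log2 ratio of CPM in the members over CPM in all other old barcodes (horizontal) for 20 genes, with all 88 members (black circles) and with the 72 members without adipocyte transcripts (red diamonds). Cfd, Fabp4, Igf1 and Lpl crossed 0 and the other 16 genes kept their direction.

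High levels of adipocyte transcripts were more frequent in the members than in the mesenchymal, blood endothelial and Schwann classes. More than 1000 CPM of the 5 genes was found in 10.2% of members (4.78 to 18.5), 0.420% of mesenchymal (0.293 to 0.584), 0.445% of blood endothelial (0.121 to 1.14) and 0 of 83 Schwann barcodes (up to 4.35). At any level the shares were 18.2% and 10.3% for members and mesenchymal barcodes. The 16 members had a core macrophage level of 15606 CPM against 29362 CPM in the other 72, and a median depth of 7730.5 against 5922 UMIs. They also had less Il1b (387 against 1138 CPM) and Tyrobp (1503 against 3365 CPM), and more Malat1, a nuclear RNA (21146 against 14277 CPM). Ucp1, Lep and Cidea, other adipocyte genes, had 0 UMIs in all members. Among the old barcodes, 149 with fewer than 3 rule genes held at least 3 adipocyte markers, a class chosen after the data were seen, and their Fabp4 level was 15634 CPM. The part of depth and of RNA from fat cells in these values was not tested.

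Genes of resident, monocyte-derived and antigen-presenting macrophages were mostly scarce. Lyve1 and Timd4 had 0 UMIs, Folr2 23 UMIs in 22 members and F13a1 12 in 9. Of 21 genes on the resident list only Gas6, Stab1, Igf1, Selenop and Marco were measured. Of these 5, 4 were higher and 0 lower, and 2 of the 5 were measured through the members alone. Without the 16 members with adipocyte transcripts 3 were higher and 1 lower. Selenop, a selenium carrier, was at 345 against 79.8 CPM in 68 members, and Stab1 at 89.1 against 16.4 CPM in 33. On the side of monocytes, Ccr2 had 2 UMIs, Ly6c2 10 UMIs that all lay in 1 member, and Chil3 and Ace 0. None of 6 measured monocyte genes was higher, and Plac8, Fn1 and Nr4a1 were lower. None of the 6 was measured through the members alone. The whole monocyte list summed to 2246 CPM in the members, 4665 CPM in the other barcodes and 5081 CPM in mesenchymal barcodes. These ratios are thus set against stroma in which the list was abundant, and an origin of the members from monocytes was not tested. For MHC class II, Cd74 had 31 UMIs in 12 members, H2-Ab1 12 in 6, H2-Aa 3 in 2 and H2-Eb1 and the class II regulator Ciita 0. Class I genes were better represented: H2-D1 and H2-K1 had log2 ratios of 2.56 and 1.74, and B2m 0.31. Reads of the H2 genes can be shared between near-identical copies.

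Textbook markers of activation did not fall on one side. Arg1, the arginase of alternatively activated macrophages at chr10:24915221-24927484, had 619 UMIs in 69 members (0 to 83, median 3.5) and a level of 1002 against 2.99 CPM. Retnla, Chil3, Mgl2, Clec10a and Cd209a, which belong to the same textbook state, had 0 UMIs each. Of the classical state, Il1b and Acod1, the itaconate-producing enzyme, were high at 981 and 235 CPM. Nos2 had 16 UMIs in 11 members, Cxcl9 6 in 3 and Cxcl10 1. The alternative list had 1 of 6 measured genes higher and 2 lower, the classical list 3 of 6 higher and 1 lower, and 1 and 3 of them were measured through the members alone. Of 5 measured interferon response genes Ifi27l2a and Bst2 were higher and none lower. Without the 16 members with adipocyte transcripts 1 was higher and 2 lower, and without the 3 members with high collagen 1 was higher and 1 lower. Isg15 was at 25.9 against 51.7 CPM.

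Enzymes of lipid mediators and matrix turnover added to the profile. Alox5ap, the helper of leukotriene synthesis, was at 594 against 2.24 CPM in 83 members, and Pla2g7, a lipase that acts on platelet-activating factor, at 444 against 1.65 CPM. Alox5 itself had 2 UMIs. Of 7 measured genes of these pathways 4 were higher and none lower, and 4 were measured through the members alone (3 of 6 higher and 1 lower without the 16 members with adipocyte transcripts). Mmp9, a gelatinase at chr2:164940780-164955850, had 424 UMIs in 67 members (0 to 32, median 3) and stood at 687 against 3.35 CPM. Adam8, a leukocyte metalloproteinase, was at 672 against 2.80 CPM. Of 13 measured proteases and inhibitors, 3 of them measured through the members alone, 4 were higher and 5 lower. Mmp2, Mmp3, Timp1 and Adamts1, known as products of stromal cells, were among the lower ones, with log2 ratios from -2.09 to -1.85. Cfp, properdin of the complement system, was at 525 against 2.42 CPM. Of 10 measured complement genes, 5 of them measured through the members alone, 5 were higher and 1 lower, and of 8 without the 16 members 4 were higher and 3 lower. Actin and motility genes of leukocytes were higher in 10 of 12, of which 7 were measured through the members alone, among them Rac2, a GTPase of blood cells (340 against 0.991 CPM).

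Of 14 measured transcription factors, 3 of them measured through the members alone, 6 were higher and 5 lower. Beside Spi1, the macrophage factors Maf (303 against 54.2 CPM) and Irf8 (48.6 against 2.84 CPM) were higher, as were Cebpa (log2 1.08) and Zeb2 (487 against 122 CPM). The median of the list was 0.11, and 0.61 without 3 members whose collagen level reached that of the other barcodes. Cebpb was at 1378 and 1395 CPM. Id3, Klf4, Klf2, Nr4a1 and Bhlhe40 were lower, with log2 ratios between -1.98 and -1.55. Immediate early genes, which respond to tissue digestion, were not higher: none of 18 reached 2-fold and 5 were lower (4 with the size factor, which also put 1 above, and 9 with totals that left out mitochondrial and ribosomal protein genes). Of 14 genes of NF-kB signalling, 3 of them measured through the members alone, 3 were higher, Traf1, Birc3 and Nfkbie (1 of 15 with the latter totals).

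The genes lowest in the members belonged to dividing, endothelial and stromal cells. The rule left out barcodes with Pdgfra or Cdh5, so low levels of endothelial and fibroblast genes follow in part from it. Of 16 measured cell cycle genes 13 were at least 2-fold lower, with a median of -2.27: Top2a, which untangles replicated DNA, was at 11.3 against 100.2 CPM and Cdk1 at 14.6 against 80.5. Mki67, the proliferation marker, was found in 13 members with 1 UMI each. Edn1, endothelin 1, had 1 UMI in the members against 85.7 CPM, and Emcn, an endothelial sialomucin, 2 UMIs against 79.2 CPM. Selp, P-selectin, had 6 UMIs against 118 CPM. Prc1 and Pclaf, also of dividing cells, the oxysterol enzyme gene Ch25h, Bmp4, Tslp, Loxl3, Epdr1, Ncs1 and Ecscr completed the 12 lowest, none with more than 8 UMIs. All 7 measured fibroblast markers were lower, between -2.55 and -1.65, and those of smooth muscle between -2.35 and -1.92, with Acta2 at 478 against 1805 CPM. These stromal RNAs were nonetheless present: Col1a2 had 344 UMIs in 69 members and Sparc 894 in 80. After thinning, Col1a2 was held by 23.9% of members, 16.8% of blood endothelial and 81.3% of mesenchymal barcodes. Collagen reached the level of the other barcodes in 3 members. Leaving them out changed the sign of no ratio examined.

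Most markers of other blood cells were at 0. Some genes of the neutrophil, platelet, T cell, type 2 innate lymphoid and dendritic cell lists were not. In sum, the neutrophil list was at 173 against 3.26 CPM and the platelet list at 100.4 against 7.61 CPM, and their part in the results was not tested. Natural killer and erythroid lists had 0 UMIs, the T cell list 0 for 9 of 10 genes including Cd3d, Cd3e and Trac, and the B cell list 1 UMI. Il7r was the exception, with 25 UMIs in 20 members. Dendritic cell genes Flt3, Xcr1, Clec9a and Ccr7 were at 0, but their list of 8 genes had 17 UMIs, at 27.5 against 94.4 CPM. The type 2 innate lymphoid list had 31 UMIs with 3 of 6 genes at 0, at 50.2 against 81.2 CPM. Of the 107 UMIs of the 7 neutrophil genes, S100a8 had 90, in 28 members, and Csf3r 2. The rest lay in another gene of the list, while S100a9, Retnlg, Ly6g and Cxcr2 were at 0. Ppbp, a chemokine stored in platelets, had 61 UMIs in 12 members, with Itga2b, Gp9 and Treml1 at 0. Pdpn, on the lymphatic list, was at 746 against 177 CPM in 81 members, with Prox1, Flt4 and Mmrn1 at 0.

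The members were not uniform. Their summed core level ran from 146 to 91422 CPM with quartiles of 17306 and 34090, and all but 1 were above 2000 CPM. Inflammatory transcripts were spread unequally: Il1b was at 0 in 30 members, and 5 members held 40.8% of its UMIs. Across the 88, the rank of Il1b went with that of Cxcl3 (Spearman rho 0.60), with Ccl3 and Ccl4 together (0.47) and with Acod1 (0.42), where the points share 1 library and differ in depth. Sums over the 58 members with Il1b and the 30 without differed in Cxcl3 (1760 and 178 CPM), Ccl2 (3077 and 776 CPM) and Csf3 (644 and 91.6 CPM), and in the other direction in Gpnmb (1070 and 1939 CPM), C1qb (475 and 943 CPM) and Ccl6 (2619 and 4450 CPM). The members with Il1b had a median of 6787.5 UMIs and the others 5662. Adipocyte transcripts were held by 12 of the 58, with 815 CPM over the 58 against 80.8 CPM over the 30. In sum, Fabp4 (2130 and 242 CPM), Lpl (852 and 102 CPM) and Car3 (477 and 10.8 CPM) were also higher with Il1b. Cfd was lower (447 and 1029 CPM). The ranks did not follow these sums. Fabp4 was held by 22 of the 58 and 18 of the 30. Across the 88, the rho of Il1b was -0.19 with Fabp4, 0.06 with Lpl and -0.06 with adipocyte transcripts. These splits were made on the values and are descriptions.

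**Figure D5:**
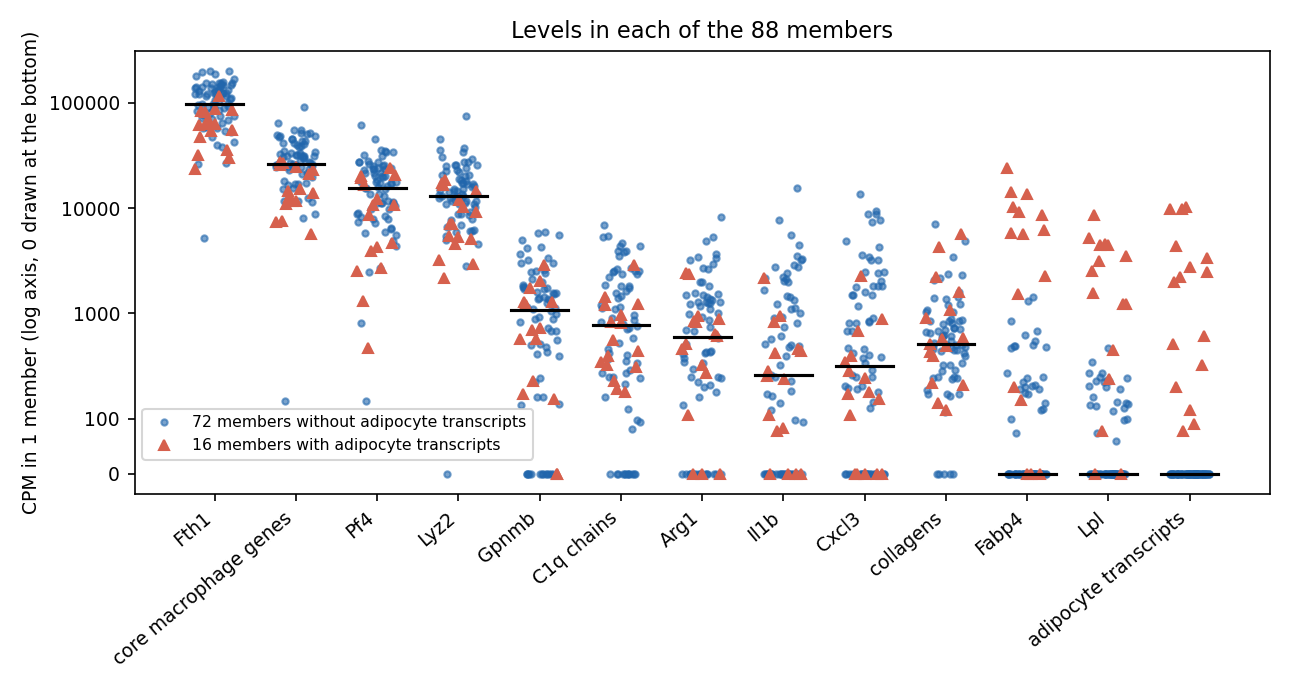
Level of each gene or group (CPM, vertical log axis with 0 drawn at the bottom) in each of the 88 members, with medians as black lines, for 72 members without (blue circles) and 16 with (red triangles) adipocyte transcripts. Fth1 lay between 5200 and 200550 CPM, whereas Fabp4, Lpl and the adipocyte transcripts had medians of 0.

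Smaller subsets carried further genes. The 12 members without a C1q UMI had a core level of 26422 CPM against 26496 in the other 76, but 296 against 946 CPM of Hmox1. None of these 12 held adipocyte transcripts, and their median depth was 5554 against 6631.5 UMIs. Their collagen level was 1992 against 1086 CPM, and they included the member at 146 CPM of core genes, which had 7105 CPM of collagen. The 7 members with H2-Aa or H2-Ab1 had more Ccl2 (12229 against 1601 CPM), Cxcl3 (6038 against 906 CPM), Il1b (3162 against 808 CPM) and Saa3 (6082 against 2523 CPM) and no Adipoq or Lpl. Ccl5, the T cell attractant, had 213 UMIs in 12 members, of which 1 member held 113. The 9 members with Marco had more Ccl6 (5756 against 2877 CPM) and Lyz2 (21126 against 13132 CPM) and less Spp1 (175 against 730 CPM) than the other 79. Arg1 was found with and without these: its 69 members had 1609 CPM of Cxcl3 against 321 CPM in the 19 others. Il1b was at 994 against 944 CPM, but 1 of the 19 was at 15467 CPM, the highest of all members. Across the 88 members the Spearman rho of Il1b with Arg1 was 0.26.

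In the young library 1 of 12755 barcodes met the same rule, or 0.00784% (0.000198 to 0.0437), against 0.642% in the old library. With 2 rule genes as the limit the counts were 5 and 172. The libraries were of similar size, with 14636 old and 13104 young barcodes and medians of 9108 and 9044.5 UMIs, but each age is 1 library, so age, animal and preparation cannot be told apart. The libraries shared 275 barcode sequences, 2 of them among the 88. The single young barcode held 300 UMIs of Pf4, 11 of C1qa, 7 of C1qb and 14 of C1qc, with 170 of Lyz2, 13 of Gpnmb, 1 of Arg1 and 0 of Il1b and Mmp9.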

How the data were processed

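Single-cell RNA was measured in 1 young and 1 old library of perivascular fat. The deposited values are UMI counts per gene and barcode, written by Cell Ranger 3.0.1 per the file headers, with mm10 named in the submitters' processing notes; the annotation and the barcode calling were not given in the sources used here. Identifiers of 31011 of 31053 genes were found in GENCODE M21. Members and gene lists were chosen with earlier results of these data known, and the 8 genes that chose the members were left out of the lists. Counts were summed over the barcodes of a class and scaled to CPM (per 1000000 UMIs). Log2 ratios carry exact conditional Poisson 95% intervals, shares exact Clopper-Pearson intervals, and all cover counting error only; a count of 0 was set to 3 in ratios. The ratio script was tested on simulated data. Genes were measured where the mean of both CPM was at least 20. Mesenchymal barcodes held Pdgfra and no Cdh5, blood endothelial barcodes Cdh5 with at least 3 endothelial markers and no Pdgfra, and Schwann barcodes at least 3 Schwann markers and neither gene, all with fewer than 3 rule genes. Genes were named by rank of their log2 ratio (top 25, bottom 12; genes of the mitochondrion, ribosome, haemoglobins, immunoglobulins, X and Y passed over), together with any gene of the 46 lists and the rule genes; Thbs1, Saa3, Wfdc17, Ifitm1 and Malat1 were named for their abundance or spread after the values were seen. No doublets were removed: the automatic threshold of Scrublet (scanpy 1.11.5) marked 0 barcodes and did not work, and removal by score was an alternative. Python 3.11.15, NumPy 2.4.6, SciPy 1.17.1 and pandas 2.3.3 were used. The members' depth ran from 2023 to 21562 UMIs and their total was 617545, so that 3 UMIs are 4.86 CPM. A few genes of the lists are not reported here.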

Additional observations from a re-analysis of the deposited data

How the results depend on the processing

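The number of members was 172 with at least 2 rule genes and 146 when barcodes were kept whatever their Pdgfra and Cdh5 UMIs, and 5 young barcodes met the rule with 2 genes. Genes at least 2-fold higher numbered 264 with 2 rule genes, 1304 with a mean of at least 5 CPM, 383 with at least 50 CPM and 335 at 4-fold. Genes at least 2-fold lower numbered 61, 2199, 487 and 208 under the same settings, 422 when Pdgfra and Cdh5 were disregarded and 1727 with totals without mitochondrial and ribosomal protein genes. Other limits on rule genes, detected genes and mitochondrial UMIs, removal of the highest Scrublet scores, means over cells and mesenchymal barcodes as the comparison left these counts within 1.5 times. Leaving out the 16 members with adipocyte transcripts, an alternative chosen after seeing the data, reversed Fabp4 (-1.11), Lpl (-1.76), Cfd (-1.43), Igf1 (-0.12) and the median of the adipocyte list (-1.43). That list then had 1 measured gene, Cfd, so its median repeats the Cfd value. Adipoq, Plin1, Cidec, Car3 and Retn chose the 16 and are at 0 in the other members by that choice. Spp1 (0.31) and the medians of the NF-kB (-0.06) and cytokine (0.43) lists changed sign with 2 rule genes. The cytokine median lay between -0.29 and 3.40 over all settings, and the transcription factor median was -0.09 with Pdgfra and Cdh5 disregarded and -0.08 with at least 50 CPM. The cause of these shifts was not tested. No paired analysis was possible because there is 1 library per age and no replicate number. The members' 617545 UMIs limit rare genes: a gene at 0 may lie at up to 4.86 CPM.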

Other observations

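Several abundant or unevenly held transcripts belonged to none of the gene lists. Wfdc17, a small secreted protein of myeloid cells, was held by 82 members (median 17 UMIs, highest 255) at 3767 CPM against 15.8 CPM in the other barcodes. Thbs1, thrombospondin 1, was held by 86 members at 4209 against 823 CPM. Saa3, an acute phase protein, had 1720 UMIs in 83 members with 51.4% of them in 5 members, at 2785 against 1184 CPM. Ifitm1 had 59 UMIs in 5 members, of which 44 lay in 1.

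The single young barcode that met the rule held 505 UMIs of Wfdc17, 217 of the chemokine gene Ccl12, 158 of Ccl2, 136 of Ccl7 and 122 of Ccl6. The 88 old members together had 20 UMIs of Ccl12, in 11 of them. With 1 young barcode no comparison between the ages can be made from these counts.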
